A study of Mus musculus with 9 samples.

Results

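Late cultured megakaryocytes, labelled MK6, were compared with early ones, labelled MK3, across all genes that the arrays could measure. The comparison rests on 5 of the 9 arrays of the series, taken by title: the arrays titled MK3 and MK3 replicate, and the arrays titled MK6, MK6 replicate1 and MK6 replicate2. The MK6 array without a number is called the unnumbered MK6 array here. A gene entered the test if a probe set naming it alone had a signal above 46.7 on at least 2 of the 9 arrays, and 9397 of 12393 genes did so.

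The cells were primary mouse megakaryocytes grown from marrow or fetal liver with thrombopoietin, the cytokine that drives the lineage, and sorted for high surface CD41, the integrin that marks it, and for size by forward scatter. Cultures were sampled on days 3, 4 and 6, which match the numbers in the stage names. The remaining 4 arrays, MKP and MK4 with 2 arrays each, entered the fit to estimate the spread. The sources used here do not give the strain, age or genotype of the mice, the tissue behind each array, or whether a stage's arrays were separate cultures. The p-values therefore reflect only how far these samples scatter, and that scatter may be technical.

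Megakaryocytes are the large cells that shed platelets. Their precursors copy their DNA repeatedly without dividing, then fill with granules and membrane and extend long processes, the proplatelets, from which platelets are released. Cultures of marrow or fetal liver start as mixtures, in which granulocyte, macrophage and mast cell precursors, and in fetal liver hepatocyte precursors, accompany the megakaryocytes.

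The arrays differed in quality and in makeup. The ratio of 3' to 5' beta-actin control signal, which increases as RNA fragments, was 0.997 and 1.08 on the MK3 arrays and 1.49, 1.33 and 3.21 on the unnumbered MK6 array, MK6 replicate1 and MK6 replicate2. The same ratio for Gapdh was 3.27 on MK6 replicate2 and 0.805 to 1.13 on the other 8 arrays. The median SD of a gene's log2 level was 0.38 in MK6, 0.25 in MK3, 0.19 in MK4 and 0.16 in MKP. The MK3 arrays stood apart from each other: the summed signal of 10 defining megakaryocyte markers was 10152 on the MK3 array and 22872 on MK3 replicate, and that of 41 monocyte and macrophage markers was 91479 and 52367. On the MK6 arrays the megakaryocyte sum was 16879 to 20119 and the macrophage sum 41848 to 87591. Fewer cells of a type and less RNA per cell cannot be told apart in such bulk RNA.

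Between MK3 and MK6 more genes passed the test downward than upward. By limma, with Benjamini-Hochberg adjustment over the 9397 genes, 237 genes (2.52%) were called at an adjusted p below 0.05, of which 68 (0.724%) were higher and 169 (1.8%) lower in MK6. The change was at least 2-fold for 234 of them, and the 2 groups of arrays did not overlap for any of the 237, against 31.8% of all genes tested. At an unadjusted p below 0.05 there were 1726 genes. The shares called over all genes are the background for the counts by list below. The lists were chosen with earlier results of these data known. A count above this background therefore describes a list and is no separate test of it. A single call on a list is not read as a result about that list. The median difference over all genes was 0.15 log2 units, so small positive differences are shared by most genes. With the arrays set to a common median in place of a common trimmed mean, the split was 48 higher and 209 lower, or 18.7% higher in place of 28.7%. Without any scaling it was 14 and 193, or 6.76% higher.

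**Figure D1:**
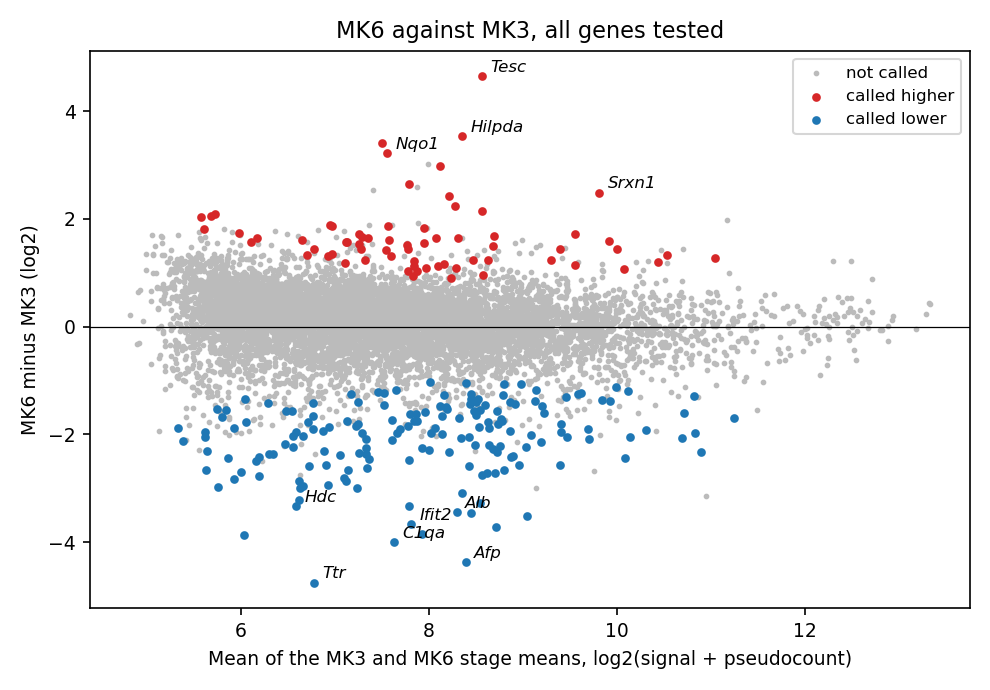
The MK6 minus MK3 difference (log2) of each of the 9397 genes is plotted against the mean of its MK3 and MK6 levels, log2(signal + pseudocount), with called genes in colour. Calls lie on both sides over the range of levels, with 68 above and 169 below 0.

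The largest rise was that of Tesc, a calcium-binding protein. Its scaled signal was 11.1 and 203 on the MK3 array and MK3 replicate, and 1640, 1557 and 2626 on the unnumbered MK6 array, MK6 replicate1 and MK6 replicate2. All MK6 arrays were above both MK3 arrays, which themselves differed widely. The difference was 4.65 ± 0.65 log2 units (SE, 2 and 3 arrays, limma adjusted p = 0.00817), and 3.13 without the MK3 array. A second Tesc probe set gave 3.75.

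Hilpda, a lipid droplet protein that slows fat breakdown, had signals of 82.9 and 78.7 in MK3 and 1647, 663 and 1223 in MK6, in the array order used above. It was lowest in MK6 on replicate1, and the groups did not overlap. The difference was 3.54 ± 0.50 (limma adjusted p = 0.00878). Fbxo32, the substrate-binding subunit of a ubiquitin ligase known from muscle wasting, went from 49.7 and 32.6 to 791, 355 and 676, a difference of 3.41 ± 0.52. Mmp12, a metalloelastase best known from macrophages, went from 96.6 and 72.7 to 1418, 447 and 703, a difference of 2.98 ± 0.62 (limma adjusted p = 0.0319). Replicate1 was the lowest MK6 array for all 3 of these genes.

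The other named rises were smaller. They were the catenin-like Ctnnal1 (2.65), the lipoprotein receptor Vldlr (2.42), the microtubule-associated Psrc1 (2.25), the creatine transporter Slc6a8 (2.15), Scrn2 (2.09) and Casp12 (2.05), an inflammatory-type caspase. Scrn2 and Casp12 were below the filter of 46.7 on both MK3 arrays, so the size of their rise depends on the pseudocount of 15.2. Scrn2 passed the filter only through the MK6 arrays. Second probe sets of Ctnnal1 and Psrc1 were also called (1.71 and 1.51), while those of Slc6a8 (1.31) and Casp12 (1.21) were not.

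**Figure D2:**
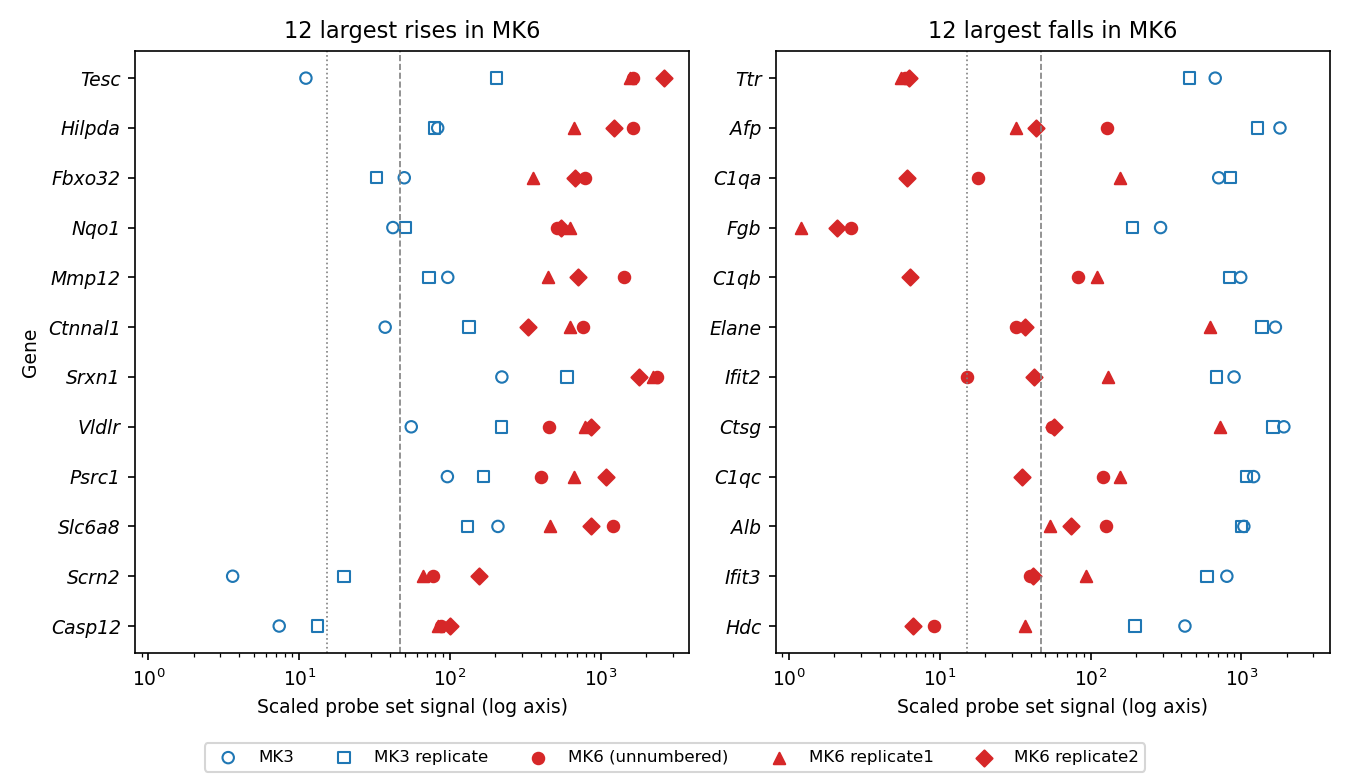
Scaled probe set signals (log axis) of the 12 genes with the largest rises and the 12 with the largest falls are drawn for the 2 MK3 arrays (open blue) and the 3 MK6 arrays (filled red); the dashed line is the filter of 46.7 and the dotted line the pseudocount of 15.2. No gene has overlapping groups, and Tesc shows the widest gap between the MK3 arrays, 11.1 against 203.

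Genes of the antioxidant response made up the list with the most rises. This programme, driven by the transcription factor Nrf2, makes glutathione, reduces quinones and exports conjugates. Of its 27 tested members 9 were called higher, against 0.724% of all genes, and none lower. The median difference was 0.48 beside 0.15 over all genes. Nqo1, which reduces quinones, had signals of 41.8 and 50.9 in MK3 and 510, 629 and 545 in MK6. The arrays of each stage lay close together, and the difference was 3.23 ± 0.25 (9.36-fold on the scale with the pseudocount, limma adjusted p = 0.000315).

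Srxn1, which repairs oxidised peroxiredoxins, went from 221 and 599 to 2370, 2234 and 1800. Its difference was 2.49 ± 0.35 on the probe set used, and 3 further probe sets, not called, gave 1.69, 1.71 and 0.39. Abcc1, a pump that exports glutathione conjugates, went from 373 and 425 to 1270, 1401 and 1375, a difference of 1.72 ± 0.22 (limma adjusted p = 0.00569). For both genes every MK6 array was above both MK3 arrays.

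The remaining 6 called members cover glutathione supply and use, haem breakdown and peroxide removal. They were the glutathione transferases Gsta4 (2.04) and Gstp1 (1.32), the cystine importer Slc7a11 (1.89), the biliverdin reductase Blvrb (1.45), Gclm (1.27), the regulatory subunit of the enzyme that starts glutathione synthesis, and catalase, Cat (1.23). Gsta4 was below 10 on both MK3 arrays, so its size depends on the pseudocount, and it passed the filter only through the MK6 arrays. Gclc, the catalytic partner of Gclm, had a difference of 0.93 and was not called (limma adjusted p = 0.0813). Among members with negative differences, none called, were the haem oxygenase Hmox1 (-0.62), Gsr (-0.59), which regenerates reduced glutathione, and Gpx1 (-0.89), a glutathione peroxidase. Nfe2l2, which encodes Nrf2, was at 0.52 (limma adjusted p = 0.225) and its inhibitor Keap1 at -0.37.

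Called genes outside the list, named after their values were seen, included 4 more enzymes of glutathione and xenobiotic metabolism: Gstm2 (1.72), Gss (1.17), Ptgr1 (1.14) and Ephx1 (1.32). The number of antioxidant list members called was 1 without the MK3 array, 3 without MK6 replicate2, 3 without scaling and 5 at a common median. The 1 left without the MK3 array was Nqo1, at 3.12 (limma adjusted p = 0.00934). The list's median stayed above that of all genes in each of these fits.

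The promoters of called antioxidant genes are shown because Nrf2 is known to bind a short element there. The motif TGACNNNGC was searched on both strands in the 300 bases around each RefSeq start (GRCm38.p6), 250 before and 50 after it. It was found in 13.9% of 9800 promoters of tested genes, in 25.6% of 82 promoters of genes called higher and in 7.98% of 163 of genes called lower. Counted by gene, 14 of 58 called higher and 1273 of 7628 tested genes with a promoter held it. It was also in 25% of 36 promoters of the tested interferon-stimulated genes. Of the 9 called antioxidant genes 7 had a promoter in the table, and 2 held the motif: Srxn1 (chr2:152105274-152105573, + strand) and Gclm (chr3:122245307-122245606, + strand). Capitals mark the match, which is on the minus strand in both and starts 28 bases after the start site in Srxn1 and 134 before it in Gclm. A match is a description of the sequence, not of binding. Only this spelling was searched, so other spellings of the element were neither marked nor counted.
Srxn1: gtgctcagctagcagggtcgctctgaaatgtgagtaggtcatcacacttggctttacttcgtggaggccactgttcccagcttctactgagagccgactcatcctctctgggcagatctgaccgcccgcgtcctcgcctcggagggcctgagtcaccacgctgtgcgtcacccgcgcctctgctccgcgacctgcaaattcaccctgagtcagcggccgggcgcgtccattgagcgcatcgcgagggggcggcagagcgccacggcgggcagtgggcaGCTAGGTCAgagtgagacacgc
Gclm: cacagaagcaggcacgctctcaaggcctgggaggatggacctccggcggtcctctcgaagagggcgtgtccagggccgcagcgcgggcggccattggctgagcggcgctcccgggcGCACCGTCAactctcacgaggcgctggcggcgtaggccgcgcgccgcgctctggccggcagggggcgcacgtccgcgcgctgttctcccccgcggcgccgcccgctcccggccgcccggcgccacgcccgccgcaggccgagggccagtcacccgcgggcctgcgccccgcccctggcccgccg

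Of 6 tested cyclin-dependent kinase inhibitors 1 was called, Cdkn1a, which encodes p21 and is known as a p53 target. It went from 768 and 695 to 1552, 1348 and 1751, a difference of 1.06 ± 0.23 (limma adjusted p = 0.0372). Its call held in 12 of 24 alternative settings and ended, among others, without scaling, with a common median and without an intensity trend in the variance. Other called genes known as p53 targets, for which no list was tested and which were named after their values were seen, were the RNA-binding Zmat3 (1.87), Gadd45a (1.83) and Trp53inp1 (1.65). Zmat3 had signals of 64.8 and 107 in MK3 and 302, 399 and 344 in MK6, with no overlap.

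Of 20 tested hypoxia-regulated genes 2 were called higher, Hilpda and Ddit4 (1.56), which restrains mTOR, and the list's median was 0.03. Vegfa, the growth factor most often used to read hypoxia, was at 1.54 and not called (limma adjusted p = 0.0664). A second Vegfa probe set gave 0.35. Of 27 genes of endoplasmic reticulum folding and stress 1 was called, the pseudokinase Trib3 (1.42), whose second probe set gave 0.96 and was not called. Of 24 apoptosis regulators 2 were called higher, Casp12 and Birc2 (1.03), an inhibitor of apoptosis. The lipid list of 25 genes had 2 called each way: Hilpda and Vldlr up, the lipoprotein lipase Lpl (-2.07) and the fatty acid carrier Fabp4 (-2.59) down. Lpl and Fabp4 are also abundant in macrophages.

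Genes of hepatocytes gave the 2 largest falls. Ttr, which encodes the thyroxine carrier transthyretin, had signals of 671 and 455 in MK3 and 5.91, 5.52 and 6.29 in MK6. Every MK6 array was below the pseudocount, so the size of the fall, -4.75 ± 0.35 log2 units (limma adjusted p = 0.000313), depends on it. Ttr passed the filter only through the 2 MK3 arrays, and it was also called with no filter. Afp, the fetal serum protein, went from 1804 and 1279 to 129, 32.2 and 43.7, a difference of -4.38 ± 0.43 (limma adjusted p = 0.00195). Albumin, Alb, went from 1039 and 1006 to 127, 53.5 and 74.2, a difference of -3.44 ± 0.38 (limma adjusted p = 0.00355). For Afp and Alb MK6 replicate1 was the lowest array.

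Of 22 tested hepatocyte markers 9 were called lower, against 1.8% of all genes, and none higher, with a median of -1.25. The other 6 were the fibrinogen chains Fga (-2.78), Fgb (-3.87) and Fgg (-2.66), the protease inhibitors Serpina1b (-2.97) and Ambp (-3.22), and the retinol carrier Rbp4 (-2.09). On all MK6 arrays 5 of the 22 markers were below the pseudocount. No count for MK3 is set beside it, because members could pass the filter through the MK3 arrays themselves. Without the MK3 array 16 were tested, and with no filter 10 of 24 were called lower. The summed signal of the 22 was 4933 and 6137 in MK3 and 1562 to 2426 in MK6, and it had been 3604 to 3737 in MKP. Further called genes of liver-type epithelium, named after their values were seen, were Hpx (-2.99), Cp (-2.69), Igf2 (-2.58), Krt8 (-1.63) and Krt18 (-1.98).

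Monocyte and macrophage genes fell in larger number from MK3 to MK6. In MKP the summed signal of the 41 tested members was 29349 to 34438, below both MK3 arrays and every MK6 array. Of the 41 members 16 were called lower, against 1.8% of all genes, and 2 higher, against 0.724%, with a median of -1.07. The subunits of complement C1q, made by tissue macrophages, were among the largest falls. C1qc went from 1206 and 1084 to 121, 157 and 35.1, a difference of -3.45 ± 0.51 (limma adjusted p = 0.00935). C1qa and C1qb had differences of -3.99 and -3.85. Other probe sets of C1qb gave -1.49, not called, and -3.33, called. Replicate1 was the highest MK6 array for all 3 subunits and still below both MK3 arrays.

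The receptor for the macrophage growth factor, Csf1r, went from 5200 and 2494 to 1331, 724 and 782, a difference of -1.97 ± 0.36 (limma adjusted p = 0.0206). Its signal was high on both stages compared with the filter of 46.7. Adgre1, which encodes the F4/80 antigen, fell by 2.05, the calcium-binding Aif1 by 2.82, the mannose receptor Mrc1 by 1.89, and the chemokine genes Ccl3, Ccl4 and Ccl9 by 2.29, 1.39 and 2.05. The 2 members that rose were Mmp12 and Fcgr2b (1.59), an inhibitory Fc receptor that is not particular to macrophages.

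The MK3 array held more macrophage marker signal than MK3 replicate, and the unnumbered MK6 array more than the other MK6 arrays. The list's median was -0.34 without the MK3 array, when none of the 41 was called by limma, and -0.83 without MK6 replicate2, when 6 were called lower. The hepatocyte list had 0 and 5 called lower in these 2 fits, at medians of -0.67 over 16 genes and -1.43 over 22. The fit without the MK3 array called only 2 genes in all, with 1052 genes at an unadjusted p below 0.05. Ttr did not pass the filter on low signals when either MK3 array was left out.

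Interferon-stimulated genes formed the third group of falls. These genes are switched on after type I interferon and encode proteins that block viral replication. Of 34 tested members 11 were called lower, against 1.8% of all genes, and none higher. The median was -1.09, and 26 of the 34 had MK6 arrays all below the MK3 arrays, against 12.5% of all genes. Ifit2, an RNA-binding antiviral protein, had signals of 895 and 685 in MK3 and 15.1, 130 and 41.9 in MK6, a difference of -3.66 ± 0.67 (limma adjusted p = 0.0206). Ifit3 went from 801 and 592 to 39.6, 93.2 and 41.8, a difference of -3.34 ± 0.55. In both genes MK6 replicate1 was the highest of the MK6 arrays.

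The other 9 called members were Mx2 (-2.44), Mx1 (-2.35), the chemokine Cxcl10 (-2.24), the virion tether Bst2 (-2.20), Stat2 (-2.11), Ifit1 (-2.0), the induction factor Irf7 (-1.96), Gbp2 (-1.75) and Oas1a (-1.11). The signals of Oas1a, an RNA-sensing enzyme, were 1483 and 1482 in MK3 and 704, 660 and 668 in MK6. Called members of the same response outside the list, named after their values were seen, were Dhx58 (-2.94), Ifi27l2a (-2.73), Rtp4 (-2.57), Zbp1 (-2.36), Oas3 (-2.06) and Cmpk2 (-1.90). The median of the list was alike with each MK6 array alone: -1.22 for the unnumbered array, -1.13 for replicate1 and -1.14 for replicate2. Without the MK3 array the median was -1.16 and 0 of the 34 were called, and without MK6 replicate2 it was -1.08 and 1 was called. The list's mean log2 level was 8.32 and 8.24 in MKP, 9.40 and 9.27 in MK3, 8.20 and 9.15 in MK4 and 7.88 to 8.23 in MK6. Many genes of the list are also expressed by macrophages, whose markers fell between the same MK3 and MK6 arrays. The part of the macrophage markers in this result was not tested.

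Promoters of called interferon-stimulated genes are shown because such genes are known for a repeated short element bound by interferon-activated factors. The motif searched was TTTC, then 2 bases of any kind, then TTTC, and it was chosen after the called genes were seen. It was found on either strand in 3.16% of the 9800 promoters of tested genes, in 12.3% of 163 of genes called lower and in 3.66% of 82 of genes called higher. Of the 11 called list members 9 had a promoter in the table, and 7 held it. Over all 34 tested list members, called or not, 28 had a promoter and 13 held it. Examples from RefSeq are Ifit3 (chr19:34583279-34583578, + strand), with 2 matches on the plus strand, and Cxcl10 (chr5:92348840-92349139, - strand), with 1 on the minus strand of the sequence shown. Capitals mark the matches, the first of which starts 156 bases before the start site in Ifit3 and 213 before it in Cxcl10.
Ifit3: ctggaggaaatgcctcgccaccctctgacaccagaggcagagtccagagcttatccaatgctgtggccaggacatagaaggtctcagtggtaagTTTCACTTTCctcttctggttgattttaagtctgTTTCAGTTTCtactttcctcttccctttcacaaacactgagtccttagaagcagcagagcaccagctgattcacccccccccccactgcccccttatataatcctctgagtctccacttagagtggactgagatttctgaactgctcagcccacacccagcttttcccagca
Cxcl10: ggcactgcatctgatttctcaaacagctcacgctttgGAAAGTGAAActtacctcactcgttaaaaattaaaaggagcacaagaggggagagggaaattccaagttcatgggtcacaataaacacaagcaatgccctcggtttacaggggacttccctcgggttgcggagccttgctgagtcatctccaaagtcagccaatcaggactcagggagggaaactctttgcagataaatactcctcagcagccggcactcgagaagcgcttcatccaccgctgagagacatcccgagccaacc

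Granulocyte genes were lower on the unnumbered MK6 array and MK6 replicate2 than on MK6 replicate1. Elane, the neutrophil elastase, had signals of 1682 and 1369 in MK3 and 31.8, 620 and 36.6 in MK6, a difference of -3.73 ± 0.86 (limma adjusted p = 0.0486). Ctsg, another primary granule protease, went from 1914 and 1625 to 55.4, 727 and 57.5 (-3.51, limma adjusted p = 0.0431). Mpo, the myeloperoxidase, was at 6352 and 5395 and then at 216, 3239 and 372, and was not called (-3.15, limma adjusted p = 0.0741). The calls of Elane and Ctsg held in 6 and 8 of 24 alternative settings, and both ended with a pseudocount of 1, with no filter on low signals, with a common median and with quantile normalization. In each of these genes MK6 replicate1 lay between MK3 and the other MK6 arrays.

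Of 22 tested neutrophil and granulocyte markers 6 were called lower, against 1.8% of all genes, with a median of -1.57. The median was -1.54 on the unnumbered MK6 array, -0.48 on replicate1 and -2.51 on replicate2, each against the MK3 mean. Without MK6 replicate2, or without the MK3 array, none of the 22 was called by limma. There was 1 call without MK3 replicate, and there were 13 without MK6 replicate1. With a pseudocount of 1, no filter or quantile normalization 3 were called, without an intensity trend 2, without either MKP array 1, and with the 5 arrays alone none.

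Of 16 tested mast cell and basophil markers 3 were called lower, against 1.8% of all genes. They were the histamine-forming Hdc (-3.33), the protease Mcpt8 (-1.89) and the carboxypeptidase Cpa3 (-1.76). The list's median was -0.46, with 11 members negative and 5 positive. Among the positive ones was the tryptase Tpsab1, which was not called. Its difference ran from 0.31 to 1.98 over the 23 alternatives in which it passed the filter. Hdc had signals of 423 and 197 in MK3 and 9.21, 37.0 and 6.63 in MK6. Eosinophil granule genes outside the lists, named after their values were seen, fell as well, Prg2 by 3.00 and Epx by 1.65. Lymphocyte (15 tested, 1 called lower, Cd79b at -1.42), erythroid (21 tested, 1 called lower, the transferrin receptor Tfrc at -1.23) and fibroblast and endothelial markers (19 tested, none called) had medians of 0.31, -0.04 and 0.18.

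**Figure D3:**
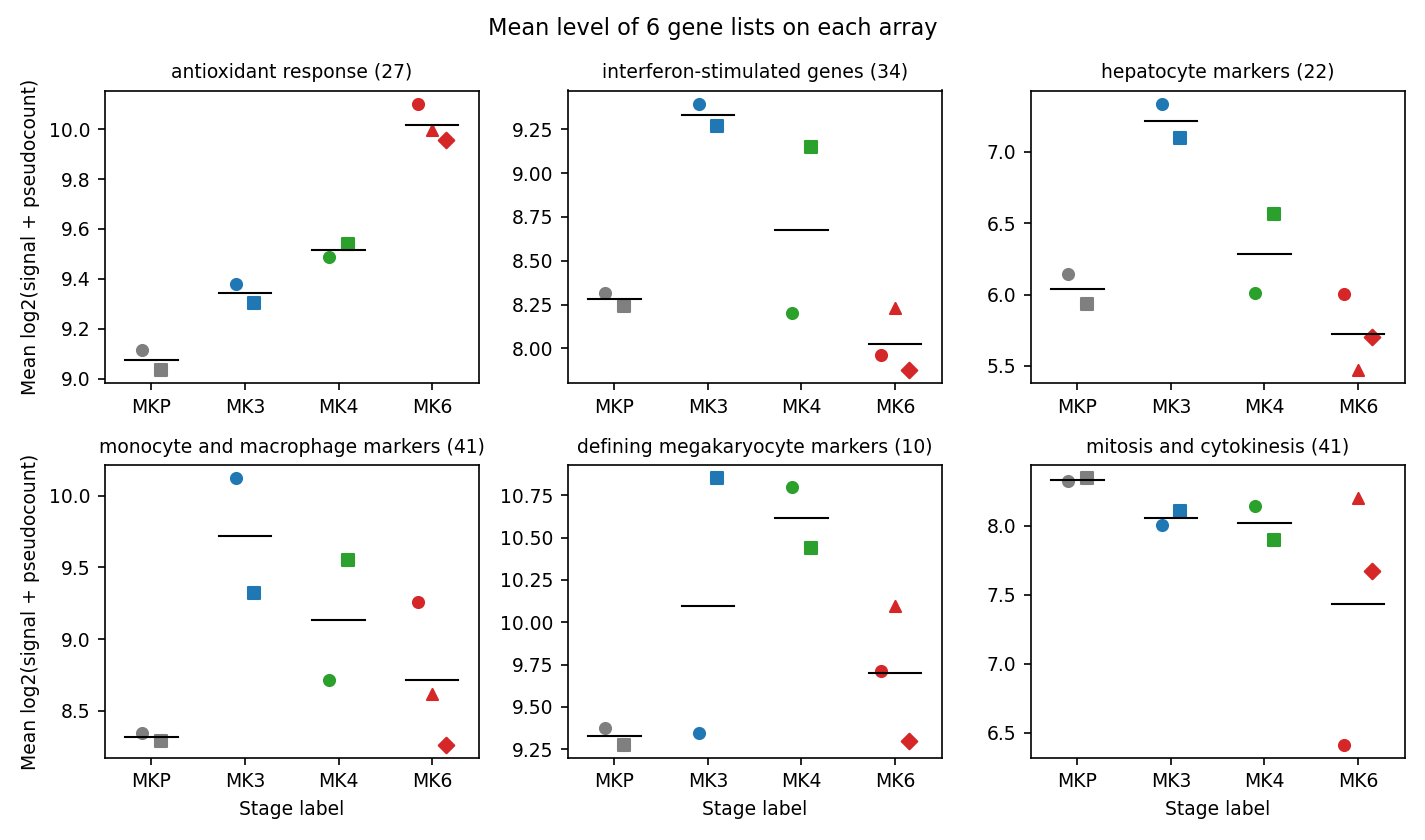
The mean log2(signal + pseudocount) over the tested members of 6 lists is drawn for each of the 9 arrays by stage label, with a line at the stage mean; circles are the first array, squares the array titled replicate, and for MK6 the triangle is replicate1 and the diamond replicate2. Antioxidant response genes are highest on the 3 MK6 arrays, interferon-stimulated and hepatocyte genes are highest on the 2 MK3 arrays, and the 10 megakaryocyte markers split the MK3 arrays at 9.35 and 10.85.

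None of the 10 tested defining megakaryocyte markers was called. Their median difference was -0.38, with 4 members positive and 6 negative. Itga2b, the alpha chain of the platelet fibrinogen receptor and the CD41 of the sort, had signals of 977 and 2749 in MK3 and 3394, 3678 and 2856 in MK6. The MK6 arrays lay above both MK3 arrays, by a margin smaller than the gap between the MK3 arrays, and the difference was 0.998 ± 0.384 (limma adjusted p = 0.209). Pf4, the platelet chemokine of the alpha granule, was at 4356 and 5604 and then at 11328, 7265 and 9223 (0.88 ± 0.29, limma adjusted p = 0.146).

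Vwf, the adhesive ligand of platelets, was at 379 and 1538 and then at 1656, 2167 and 1565 (1.20 ± 0.45, limma adjusted p = 0.199). Itgb3, the beta chain that pairs with Itga2b, was at 187 and 283 and then at 143, 56.4 and 15.02 (-1.81 ± 0.55, limma adjusted p = 0.117). Clec1b, the platelet podoplanin receptor, was at 408 and 1942 and then at 123, 371 and 103 (-2.30 ± 0.60, limma adjusted p = 0.0722). The paired integrin chains thus had differences of opposite sign, neither past the threshold. The platelet glycoprotein genes Gp9 (-0.88), Gp1bb (-0.47) and Gp5 (-0.30) had overlapping groups.

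The sign of the marker median depended on the MK3 array used. Against MK3 replicate alone, with the MK3 array left out, it was -1.36. Against the MK3 array alone it was 0.59, with 2 of the 10 called higher. With 30 platelet receptor and adhesion genes, 1 was called lower, Fcer1g (-1.30), a signalling chain also used by macrophages and mast cells, and the median of -0.18 became 0.32 without MK3 replicate.

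Of 42 tested genes of the cytoskeleton used in proplatelet formation 3 were called lower and none higher, with a median of -0.41. Over all genes 1.8% were called lower. They were Pfn1 (-2.45), which feeds actin growth, Tln1 (-1.90), which activates integrins, and Flna (-1.61), which crosslinks actin. Pfn1 had signals of 2138 and 2998 in MK3 and 338, 1288 and 206 in MK6, so that replicate1 was nearer to MK3 than the other MK6 arrays were. Its call held in 6 of 24 alternative settings and ended with a pseudocount of 1, with no filter, with a common median, with quantile normalization and with both other treatments of probe sets. A second, dim probe set of Tln1 gave 0.47 and was not called. Neither the 26 alpha-granule genes nor the 17 dense-granule genes tested had a member called, and their medians were -0.10 and -0.02. The alpha-granule list's widest difference was that of Ctla2a (1.99, limma adjusted p = 0.0559).

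Among 27 transcription factors of the lineage 1 was called, the actin-regulated coactivator Mrtfa (-1.05, limma adjusted p = 0.0411). Nfe2, which is required for proplatelet formation, was at 456 and 1449 and then at 783, 1501 and 964 (0.35, limma adjusted p = 0.667). Gata1 (-0.24), Fli1 (-0.57) and Kit (-0.96) were not called either, nor was Myc (-0.03). Myb, which holds progenitors in cycle, was at 511 and 593 and then at 50.4, 424 and 196 (-1.63, limma adjusted p = 0.181), lowest on the unnumbered MK6 array. Of 6 tested genes reported as NF-E2 targets 1 was called, Casp12. Of 22 stem and progenitor genes 1 was called, Hoxa9 (1.36), higher in MK6. A second, dim Hoxa9 probe set gave 0.58 and was not called.

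Cell division genes separated the MK6 arrays from one another. Of 41 tested genes of mitosis and cytokinesis none was called by limma, with a median of -0.67. The median against the MK3 mean was -1.43 on the unnumbered array, 0.23 on replicate1 and -0.32 on replicate2. Birc5, the survivin of the mitotic spindle, was at 420 and 564 in MK3 and at 10.4, 384 and 247 in MK6, and the checkpoint kinase Bub1b at 314 and 384 and then at 15.8, 344 and 209. On MK6 replicate1 both were near their MK3 level, and on the unnumbered array both were at or near the pseudocount. Fitted with the unnumbered array alone, 26 of the 41 were called lower, beside 5.3% of all genes tested in that fit.

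DNA replication and G1/S genes (44 tested, median -0.39) had 1 called lower, the transcription factor E2f1, at 288 and 222 and then at 112, 92.6 and 95.8 (-1.22 ± 0.23, limma adjusted p = 0.0213). E2f1 was about as low on replicate1 as on the other MK6 arrays, and a second, dim probe set gave -0.43 and was not called. The thymidine kinase Tk1 was at 246 and 237 and then at 5.59, 114 and 5.22 (-2.76, limma adjusted p = 0.0581). The motif TTTGAA, the core of an element known from cell cycle promoters, stood in 73.7% of 38 promoters of mitosis genes and in 11.9% of the 9800 of tested genes.

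Housekeeping groups showed few calls. Ribosome biogenesis (35 tested), mitochondrial respiration (31), cholesterol synthesis (20), proteasome (31), aminoacyl-tRNA synthetases (17) and eicosanoid synthesis (13) had no member called, with medians of 0.03, -0.15, -0.55, -0.02, 0.12 and 0.02. Glycolysis had 1 of 16 called lower, the phosphofructokinase Pfkl (-1.43), and the lysosome list 1 of 34, the protease Ctsc (-1.60). A second Pfkl probe set gave -0.92 and was not called. In cholesterol synthesis 18 of 20 differences were negative, led by Fdps (-2.14, limma adjusted p = 0.0636), beside 3569 of 9397 over all genes. The list's median was nearer to that of all genes on MK6 replicate1 alone (-0.21) and without MK3 replicate (-0.22).

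**Figure D4:**
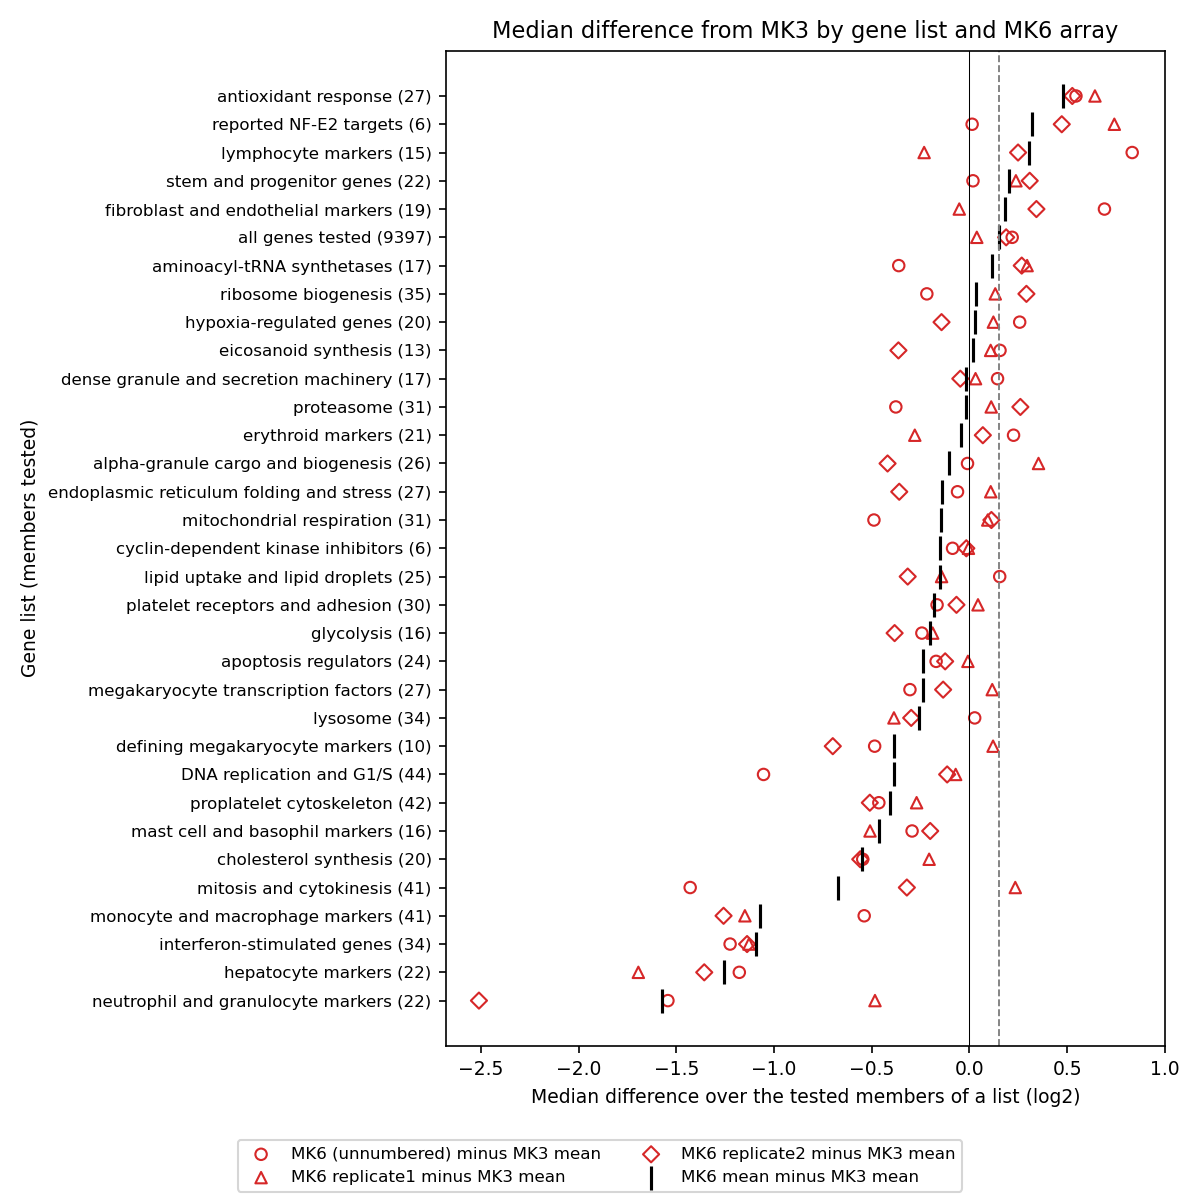
The median log2 difference from the MK3 mean over the tested members of each list is drawn for each MK6 array alone and for the MK6 mean, with the members tested in brackets; the dashed line is the median of all genes, 0.15. The 3 arrays lie close together for antioxidant response and interferon-stimulated genes, and far apart for neutrophil genes (-2.51 to -0.48) and for mitosis (-1.43 to 0.23).

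MK6 replicate1 gave fewer calls by itself than the other MK6 arrays. Among the MK6 arrays it had the lowest actin ratio (1.33) and the highest trimmed mean as deposited (184, against 103 and 102). Its Gapdh ratio, 1.13, was above the 0.996 of the unnumbered array. Over genes MK6 replicate1 had a Pearson correlation of 0.943 with MK4 replicate, 0.940 with MK4 and 0.936 with MK3 replicate. Its correlation was 0.926 with MK6 replicate2, 0.870 with the MK3 array and 0.834 with the unnumbered MK6 array. With the other 2 MK6 arrays left out, and its spread taken to be that of the other stages, 30 of 8719 genes (0.344%) were called by limma, 5 higher (0.0573%) and 25 lower (0.287%), with 1091 at an unadjusted p below 0.05. Most of these calls were among the 237 and in the same direction. The fit behind the 237 also holds MK6 replicate1 and the same MK3 arrays, so this overlap is no separate test. The unnumbered array alone gave 249 higher and 479 lower (8.05% of genes in that fit), and MK6 replicate2 alone 129 and 373 (5.63%).

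The 5 rises of MK6 replicate1 were Nqo1 (3.39 ± 0.33, limma adjusted p = 0.0122), Podxl (2.40), a sialomucin of blood progenitors and platelets, Dlk1 (2.19), a Notch-like surface protein that is on the hepatocyte list, Zmat3 (2.07) and Abcc1 (1.78). Podxl was at 99.0 and 113 in MK3 and at 170, 622 and 806 in MK6. Dlk1 was at 446 and 356 and then at 230, 1872 and 665, so that the unnumbered array was below MK3. Neither of these 2 was called with all arrays (limma adjusted p = 0.071 and 0.553), and their differences in MK3 minus MKP, -2.10 and -2.60, were not called either (limma adjusted p = 0.169 and 0.173).

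Of the 25 falls of MK6 replicate1, 4 were on the hepatocyte list and 3 on the macrophage list. They were Afp (-5.02), Ttr (-4.78), Alb (-3.92) and Rbp4 (-2.61), and C1qb (-2.89), Aif1 (-2.68) and Adgre1 (-2.49). Outside the lists they included S100a4 (-3.65), the eosinophil Prg2 (-3.38), Hpx (-3.32), Rnase4 (-3.11) and Igf2 (-2.79). None of the 34 interferon-stimulated genes was called with this array alone, although their median was -1.13, and none of the neutrophil, mitosis or replication genes was. H2-Aa (-2.45), a class II antigen gene, was the third call that was not among the 237.

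Over the 68 genes called higher with all arrays the median difference was 1.53 on the unnumbered MK6 array, 1.29 on replicate1 and 1.60 on replicate2. Over the 169 called lower it was -1.77, -1.70 and -2.24. These values describe the arrays that chose the genes and are no separate test of them.

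**Figure D5:**
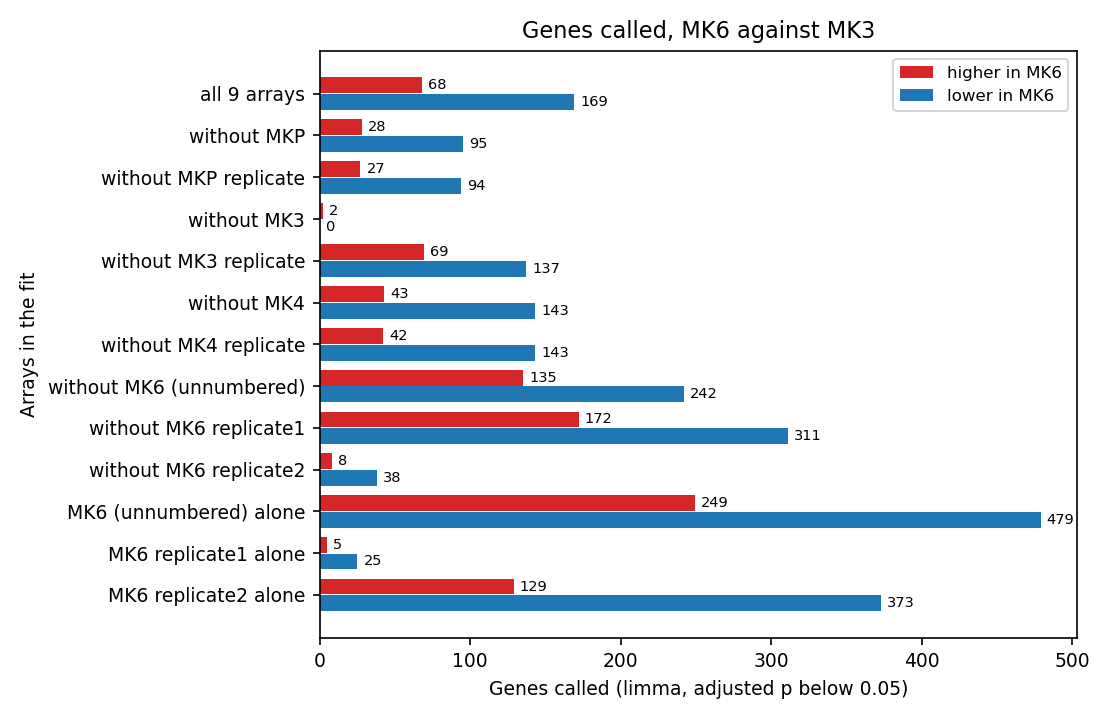
Numbers of genes called higher (red) and lower (blue) in MK6 by limma are drawn for the fit to all 9 arrays, with each array left out, and with each MK6 array alone. The count is lowest without the MK3 array and highest with the unnumbered MK6 array alone. Fits with a single MK6 array take their spread from the other stages, where it was smaller than in MK6.

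The number of calls depended on single arrays. Without the MK3 array 2 genes were called, Tesc and Nqo1, and without MK6 replicate2 there were 8 higher and 38 lower. Without MK6 replicate1 the counts were 172 and 311, without the unnumbered array 135 and 242, and without MK3 replicate 69 and 137. Leaving out an MKP array gave 28 and 95 or 27 and 94. Of the 237 genes, 2 rises (Tesc and Nqo1) and 0 falls were called in each of the 9 fits that leave out 1 array, and 8 rises and 34 falls in at least 8 of them.

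The levels in MK4, the stage between those compared, gave the size of each step. MK4 minus MK3 called 1 gene (0.0106%) by limma, Ttr (-3.72), which passed the filter only through the MK3 arrays, the higher group there. MK6 minus MK4 called 2 (0.0213%), Nqo1 (2.27) and Map11 (-2.47). Alb had differences of -2.23 from MK3 to MK4 and -1.21 from MK4 to MK6, Afp -2.12 and -2.26, and C1qa -0.43 and -3.57. Hdc had -0.36 and -2.97, and Elane 0.27 and -4.00. Nqo1 had 0.95 and 2.27, Tesc 2.09 and 2.56, and Slc6a8 0.06 and 2.09. A test of whether the later step differed from the earlier one called 0 genes by limma, with 273 at an unadjusted p below 0.05, so no gene's timing passed the threshold.

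MK3 minus MKP, which shares the MK3 arrays with the main comparison, called 6 genes (0.0639%) by limma. Of the genes named above, Ttr was among them (3.45, limma adjusted p = 0.00491). It passed the filter only through the MK3 arrays, the higher group in that comparison too. Afp (2.38, limma adjusted p = 0.0883), Alb (2.27, 0.0742), Ifit2 (2.89, 0.163), Ifit3 (2.75, 0.104) and C1qa (2.30, 0.323) were not called. The scaled signals of Ifit2 were 73.1 and 117 in MKP, 144 and 738 in MK4 and 15.1 to 130 in MK6, so the MK4 arrays themselves differed widely. Nqo1 was at 53.6 and 76.6 in MKP and at 84.9 and 126 in MK4, below all MK6 arrays.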

How the data were processed

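RNA of sorted mouse megakaryocytes was measured on 9 single-colour Affymetrix MOE430A arrays. The authors deposited linear probe set intensities. Per the submitters' processing notes the tool was MAS5, whose version is not given in the sources used here. Detection calls played no part. The deposited trimmed means (2% off each end) ran from 102 to 221, so each array was scaled to 161. Values were taken as log2(signal + 15.2), the 20th percentile of scaled signals, which shrinks the apparent change of dim genes. Probe sets with 1 gene symbol (20380 of 22690) above 46.7 on at least 2 arrays were kept, and the one with the highest mean stood for its gene. All 9 arrays entered 1 model with a mean per stage (limma 3.58.1, R 4.3.3, trended eBayes, 5 residual degrees of freedom), with Benjamini-Hochberg adjustment over all genes tested. On simulated data with 200 of 9397 genes changed, the MK6 minus MK3 test recovered 20.9%, 70.1% and 90.9% of log2 differences of 1, 2 and 3, with 6 false calls. The simulated noise was independent between genes, with 1 SD per gene for all stages. It leaves out differences between whole arrays and the wider spread of MK6, so these rates need not hold for the real arrays.

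The gene lists and the comparison were chosen with earlier results of these data known. Named genes are the 12 largest rises and falls among called genes with no overlap and a higher group above the filter, the 4 widest differences of each list, and fixed lineage genes; others are said to be chosen after their values were seen. Alternatives were 2 pseudocounts, 2 filters, 3 scalings, 2 treatments of probe sets, 2 variance models, the 5 arrays alone, each array left out, and each MK6 array alone. Promoters are RefSeq's. The number of arrays limits the precision.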

Additional observations from a re-analysis of the deposited data

How the results depend on the processing

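All 46 called genes that the naming rule gave kept their direction in each of the 24 alternatives in which they passed the filter, and the counts of genes called higher and lower stayed within 1.5 times the values reported under both pseudocounts, both filters, both treatments of probe sets, both variance models, quantile normalization and a common median. The exceptions were these. Without scaling 14 genes were called higher. With the 5 arrays of the comparison alone 20 were called higher and 78 lower. With 1 MK6 array alone, the counts were 249 and 479 (unnumbered array), 5 and 25 (MK6 replicate1) and 129 and 373 (MK6 replicate2). Leaving out 1 array at a time gave 2 to 172 higher and 0 to 311 lower, with the lowest counts without the MK3 array and the highest without MK6 replicate1. The test of the later step against the earlier one gave 0 to 3 genes over the fits without 1 array, 26 with the unnumbered MK6 array alone, 9 with MK6 replicate2 alone and 0 with MK6 replicate1 alone. Of the 46 named calls 43 of the 45 that passed the filter were lost without the MK3 array, 34 without MK6 replicate2, 17 without MK3 replicate and 1 without MK6 replicate1; the cause was not tested. Processing choices ended named calls too: 6 each with a pseudocount of 1, no filter and a common median, 7 each with quantile normalization and the mean of probe sets, 11 each without scaling and without an intensity trend, and 20 with the 5 arrays alone. Calls that held in 12 or fewer of 24 alternatives were those of Elane, Pfn1 and Cd79b (6), Ctsg (8), Fcer1g and Mrtfa (10), Hoxa9 (11), and Cdkn1a and Pfkl (12); those of Gsta4 and Scrn2 held in 10 and 12 of 20. Of the 32 lists 11 kept the sign of their median in all 24 alternatives, among them antioxidant response (0.08 to 0.56), interferon-stimulated genes (-1.47 to -1.01), hepatocyte (-2.97 to -0.67) and macrophage markers (-1.53 to -0.34), while mitosis ran from -1.43 to 0.23 and the defining megakaryocyte markers from -1.36 to 0.59. No paired analysis was possible because only the MK6 arrays carry replicate numbers. With 2 and 3 arrays, most simulated differences of 1 log2 unit were not called, and dim signals carry no detection call here.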
